A study of Mus musculus with 12 samples.

Results

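The 4 adenosine receptors of the mouse are encoded by Adora1 (A1), Adora2a (A2A), Adora2b (A2B) and Adora3 (A3), and these 4 genes, of 52636 gene identifiers counted, are described here over the GFP and treatment conditions of sorted tumor CD8+ T cells. They were taken as the whole receptor family, but were singled out with their measured values known, because Adora2a and Adora3 had been seen to differ in opposite directions between GFP+ and GFP− cells. The GFP difference of each receptor is therefore given as a description without a test, whereas the effect of anti-PD-L1 was not used to choose the genes and is tested. The cells came from A2AR eGFP reporter mice, Tg(Adora2a-EGFP)EP141Gsat on a C57BL/6 background, which carry a bacterial artificial chromosome with the EGFP cDNA and its own polyadenylation signal at the Adora2a start codon. The mice of the study were 6 to 16 weeks old, and those bearing AT3ova, an ovalbumin-expressing mouse breast cancer line, were female. They received 500000 tumor cells subcutaneously, were either left non-treated or given anti-PD-L1, an antibody that blocks the ligand of PD-1, on days 14 and 18, and CD8+ tumor infiltrating lymphocytes were sorted by GFP on day 21. Each of the 4 conditions (GFP+ or GFP−, non-treated or anti-PD-L1) had 3 libraries, each pooled from 3 mice and named by a code from KT13 to KT24, so the spread within a condition is that between pools. GFP is driven by the Adora2a regulatory sequence on the transgene, the endogenous gene being intact, and the sort was made on that reporter, so Adora2a was linked to the GFP gate by design.

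Adenosine receptors are G protein-coupled receptors for extracellular adenosine, which accumulates in tumors when ATP released from cells is dephosphorylated by the ectoenzymes CD39 and CD73. A2A and A2B couple to Gs, which activates adenylyl cyclase and raises cAMP, and A2A is the receptor through which adenosine is best known to restrain T cells. A1 and A3 couple to Gi, which inhibits adenylyl cyclase, so the A2A and A3 receptors act on the same second messenger in opposite directions. A2B needs higher adenosine concentrations than A2A to be activated, A1 is best known in the nervous system and heart, and in rodents A3 is best known in mast cells.

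On the GRCm38 build, Adora1 lies on the minus strand at chr1:134199223-134235431, and the other receptors on the plus strand, Adora2a at chr10:75316877-75334784, Adora2b at chr11:62248984-62266453 and Adora3 at chr3:105870858-105908926. The libraries count the 3′ ends of polyadenylated transcripts, and the end of each gene was searched for sequence shared with other genes. Of the 451 stretches of 50 bases in the last 500 bases of each receptor transcript, none occurred in an annotated transcript of another gene for Adora1, Adora2a and Adora2b, and 6 occurred in Ppm1h for Adora3. Adora3 overlaps Tmigd3, a gene on the same strand with which it shares 779 of its 3729 exonic bases. None of the 1638 bases of the last exon of the main annotated Adora3 transcript (chr3:105907289-105908926), where its reads are expected, lies in an annotated Tmigd3 exon.

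RefSeq promoter windows, from 250 bases before to 50 after the transcript start on GRCm38.p6, were at hand for Adora1, Adora2b and Adora3, and those of Adora3 and Adora2b are shown, as the receptor whose level opposed Adora2a and the other receptor that was detected. Capitals mark matches on either strand to the letters of AP-1 (TGANTCA), ETS (AGGAAG) and E-box (CAGNTG) motifs or to AGATAA, bound by GATA factors.
Adora3, chr3:105904171-105904470, plus strand: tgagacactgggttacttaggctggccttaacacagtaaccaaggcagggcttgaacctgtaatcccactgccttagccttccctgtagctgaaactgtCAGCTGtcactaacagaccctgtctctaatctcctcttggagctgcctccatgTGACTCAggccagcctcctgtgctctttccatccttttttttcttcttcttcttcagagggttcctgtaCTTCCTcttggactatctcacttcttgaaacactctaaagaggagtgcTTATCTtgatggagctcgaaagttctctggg
Adora2b, chr11:62248734-62249033, plus strand: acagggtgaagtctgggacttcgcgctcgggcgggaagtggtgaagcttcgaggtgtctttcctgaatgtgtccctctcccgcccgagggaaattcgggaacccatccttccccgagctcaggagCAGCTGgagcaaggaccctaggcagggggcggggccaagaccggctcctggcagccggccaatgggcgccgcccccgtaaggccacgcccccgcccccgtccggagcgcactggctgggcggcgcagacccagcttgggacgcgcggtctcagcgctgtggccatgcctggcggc
The Adora3 window was 48.3% G+C with 1 CG dinucleotide, against a median of 52.7% and 7 CG over 32851 mouse promoter windows, and only 5.43% of them held fewer CG. The Adora2b window was 70% G+C with 27 CG, and the 2 windows of Adora1 were both 66% G+C with 24 and 26 CG. In the Adora3 window the AP-1 letters, found in 7.81% of all windows, occurred once, as did the ETS letters (35.4%), the GATA letters (11.2%) and the E-box letters (51.4%). The letters of the CREB half-site (TGACG, 20.8% of windows), STAT (TTCNNNGAA, 8.3%), RUNX (TGTGGT, 16.8%) and T-box (TCACAC, 14.5%) were not in this window, and the Adora2b window held the E-box letters alone. These matches describe the windows and say nothing of binding in these cells.

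The libraries held between 11292699 and 19023900 counts, so that 3 counts, used here as the limit of measurement, were worth 0.152 to 0.267 CPM, the count of a gene scaled to a common library size. All CPM were normalized by TMM, which corrects for differences in RNA composition. KT13 (non-treated GFP+) and KT21 (anti-PD-L1 GFP+) stood apart, with median Spearman correlations to the other libraries of 0.941 and 0.935 against 0.967 to 0.977 for the other 10, and results are given with and without this pair. Without it, each GFP+ condition has only 2 libraries. The libraries carried transcripts of CD8+ T cells, with Cd8a between 799 and 1360 CPM, Cd3e between 171 and 288 CPM, and Cd4 at most 0.919 CPM. These levels do not show purity, as C1qa, a macrophage gene, was 26.6 to 96.2 CPM. Transcripts of other cells are given below. Foxp3, a marker of regulatory T cells, was 6.44 to 24.9 CPM, with log2 differences of GFP+ against GFP− of −0.38 in non-treated and −0.78 after anti-PD-L1.

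The A2A and A3 receptor transcripts were measured in every library, the A2B transcript was near the limit, and the A1 transcript was not detected. Adora2a had 344 to 1468 counts per library and Adora3 90 to 493, whereas Adora2b had 0 to 25 and Adora1 had 0 in all 12 libraries. The limit of 3 counts allows Adora1 up to 0.152 to 0.267 CPM, depending on the library, and no difference of Adora1 could be measured. Adora2b was above 3 counts in 11 of 12 libraries and passed the filter on low counts, as did Adora2a and Adora3, and Adora1 did not. By mean CPM, Adora2a exceeded 79.6% of the 14173 genes tested, Adora3 exceeded 57.9% and Adora2b 11.7%. A 3′ library gives about 1 read per sampled transcript whatever its length, so CPM of different receptors are compared here without a length correction. Fewer cells carrying a transcript and less transcript per cell cannot be told apart in these sorted pools.

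**Figure D1:**
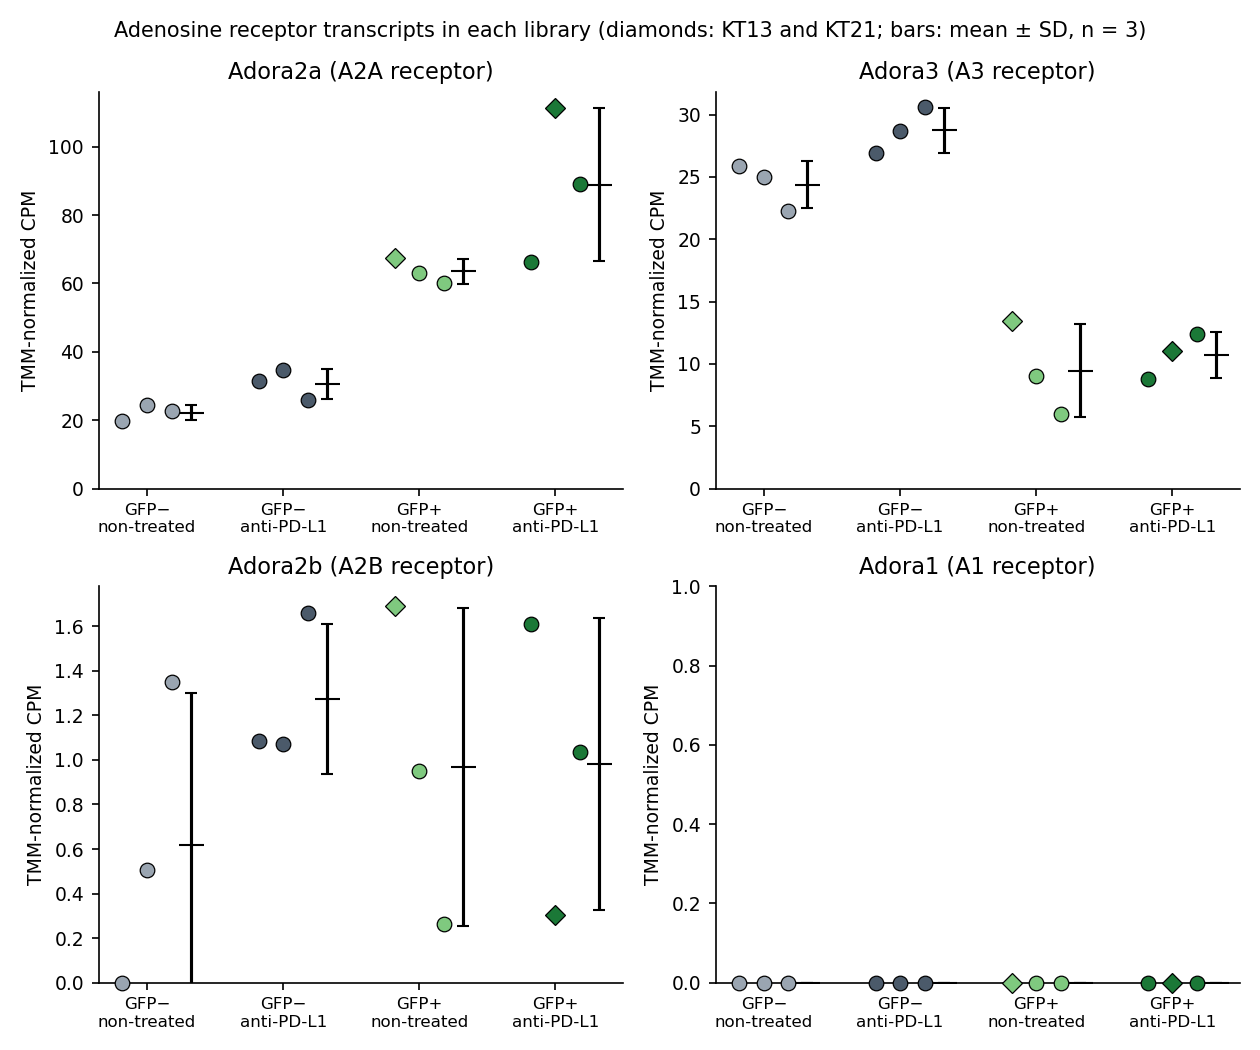
TMM-normalized CPM (y axis, linear, a scale for each gene) of Adora2a, Adora3, Adora2b and Adora1 in each of the 12 libraries by condition, with the mean ± SD of 3 libraries beside the points and KT13 and KT21 as diamonds. Every GFP+ library was above every GFP− library for Adora2a and below every GFP− library for Adora3, Adora2b was under 2 CPM throughout with overlapping conditions, and Adora1 was at 0.

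Adora2a, the Gs-coupled receptor on which the reporter is built, was 67.3 CPM in KT13, 63.0 in KT15 and 60.2 in KT17, the non-treated GFP+ libraries (mean 63.5 ± 3.59 CPM, SD, n = 3). In the non-treated GFP− libraries it was 19.7 CPM in KT14, 24.3 in KT16 and 22.6 in KT18 (mean 22.2 ± 2.31 CPM, SD, n = 3). GFP+ libraries were all above GFP− libraries, and the transcript was also plainly present in the GFP− cells. After anti-PD-L1, Adora2a was 66.3 CPM in KT19, 111 in KT21 and 89.1 in KT23 among GFP+ libraries (mean 88.9 ± 22.5 CPM, SD, n = 3). It was 31.4 CPM in KT20, 34.6 in KT22 and 26.0 in KT24 among GFP− libraries (mean 30.7 ± 4.38 CPM, SD, n = 3). The GFP+ and GFP− libraries did not overlap here either, and the highest value of all was that of KT21. The fitted log2 difference of GFP+ against GFP− was 1.51 (SE 0.195) in non-treated and 1.53 (SE 0.194) after anti-PD-L1, or 2.86-fold and 2.90-fold. Without KT13 and KT21 these log2 differences were 1.47 and 1.34. Across all genes tested, 0.00706% were called between GFP+ and GFP− in non-treated cells and 0.0282% after anti-PD-L1 by edgeR at an adjusted p under 0.05, and nothing is read from these shares for the receptors, since the gate and the choice of genes used this contrast. Adora2a had the 411th highest log2 difference of 14173 genes in non-treated cells and the 312th highest after anti-PD-L1. This order takes no account of error, so genes with few counts can stand high in it.

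Adora3, the Gi-coupled receptor, had the reverse order. It was 13.4 CPM in KT13, 8.99 in KT15 and 5.98 in KT17 in non-treated GFP+ libraries (mean 9.47 ± 3.75 CPM, SD, n = 3). It was 25.9 CPM in KT14, 25.0 in KT16 and 22.3 in KT18 in non-treated GFP− libraries (mean 24.4 ± 1.87 CPM, SD, n = 3). The lowest GFP− library thus lay above the highest GFP+ library, which was KT13. After anti-PD-L1, Adora3 was 8.76 CPM in KT19, 10.996 in KT21 and 12.4 in KT23 in GFP+ libraries (mean 10.7 ± 1.82 CPM, SD, n = 3). It was 26.9 CPM in KT20, 28.7 in KT22 and 30.6 in KT24 in GFP− libraries (mean 28.7 ± 1.83 CPM, SD, n = 3). The fractions were again separate, with GFP− higher. The fitted log2 difference of GFP+ against GFP− was −1.37 (SE 0.257) in non-treated and −1.42 (SE 0.257) after anti-PD-L1, that is 2.59-fold and 2.68-fold lower in GFP+ cells. Without KT13 and KT21 it was −1.70 (SE 0.230) and −1.45 (SE 0.226), and the non-treated mean of the GFP+ libraries was then 7.46 CPM (n = 2). Adora3 had the 283rd lowest log2 difference of 14173 genes in non-treated cells and the 219th lowest after anti-PD-L1, again in an order that takes no account of error.

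**Figure D2:**
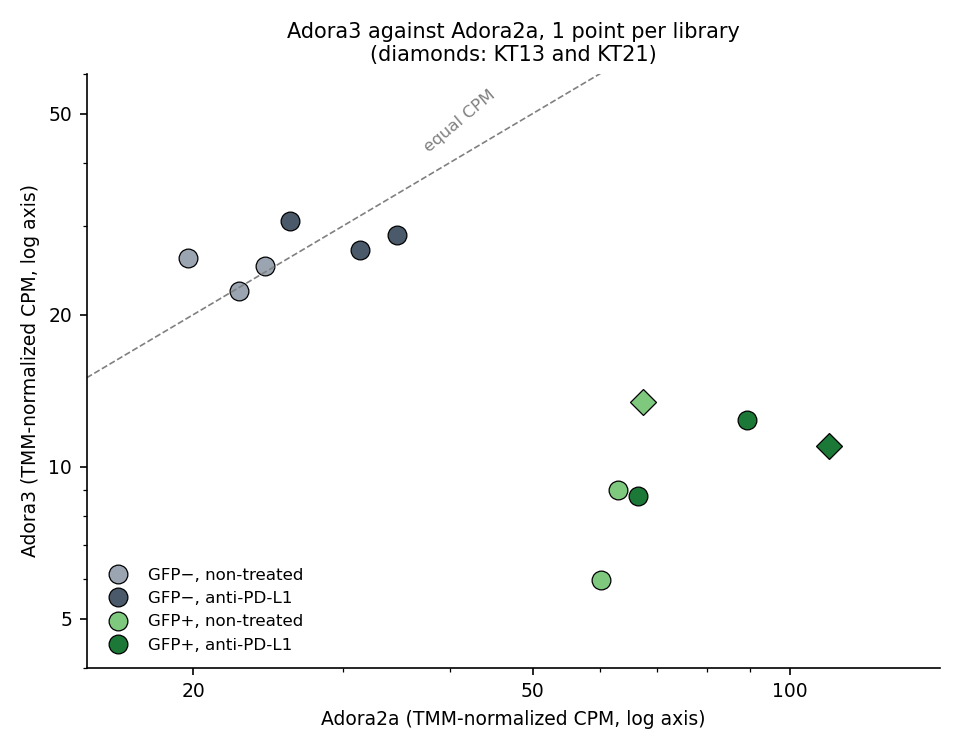
Adora3 against Adora2a in TMM-normalized CPM on log axes, 1 point for each of the 12 libraries, coloured by condition, with KT13 and KT21 as diamonds and a dashed line where both are equal. GFP− libraries lie near the line, between 19.7 and 34.6 CPM of Adora2a and 22.3 and 30.6 CPM of Adora3, and GFP+ libraries lie far below it, at 60.2 CPM of Adora2a or more and 13.4 CPM of Adora3 or less.

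Because Adora2a and Adora3 differed in opposite directions, the makeup of the receptor transcripts differed more between the fractions than either gene alone. This, and the smaller difference of their sum, follow from the way the 2 genes were chosen and are given as a description. The ratio of Adora2a to Adora3 counts was 5.01 in KT13, 7.01 in KT15 and 10.1 in KT17, and 0.763 in KT14, 0.972 in KT16 and 1.01 in KT18. After anti-PD-L1 it was 7.57 in KT19, 10.1 in KT21 and 7.20 in KT23, and 1.17 in KT20, 1.21 in KT22 and 0.849 in KT24. GFP− cells thus held about as many Adora3 as Adora2a counts, and every GFP+ library held at least 5.01 Adora2a counts per Adora3 count. Adora2a gave 86.2% ± 4.48 of the receptor counts in non-treated GFP+ cells and 47.0% ± 3.20 in non-treated GFP− cells (SD, n = 3). After anti-PD-L1 it gave 88.1% ± 2.37 in GFP+ cells and 50.4% ± 5.04 in GFP− cells (SD, n = 3). The lowest GFP+ library, KT13, had 81.6% (exact binomial 95% interval 79.0 to 84.1) and the highest GFP− library, KT22, had 53.8% (50.4 to 57.0). These intervals cover counting error within a library only, and are no test of the GFP difference. They take reads as independent, and would be too narrow if some reads were copies of others. The sum of the receptor transcripts differed less than their makeup, at 73.9 ± 8.05 CPM in GFP+ and 47.2 ± 2.28 CPM in GFP− cells without treatment, and 100.6 ± 23.01 and 60.7 ± 3.31 CPM after anti-PD-L1 (SD, n = 3).

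**Figure D3:**
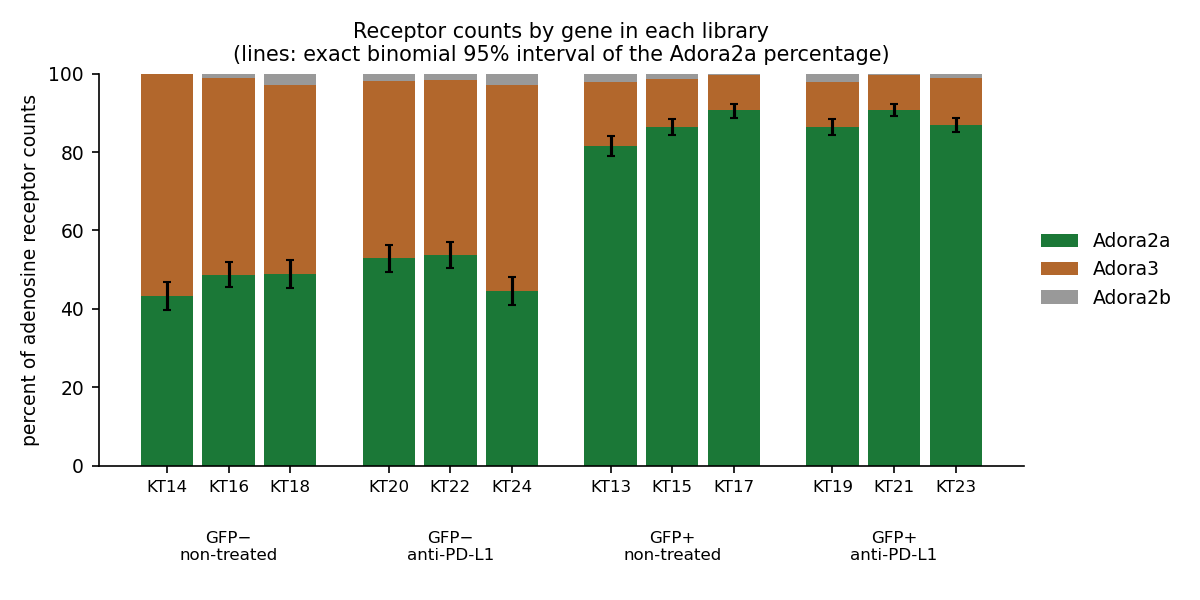
Percentage of the adenosine receptor counts (y axis, from 0 to 100) that came from Adora2a, Adora3 and Adora2b in each of the 12 libraries, grouped by condition, with the exact binomial 95% interval of the Adora2a percentage as a line. Adora2a took 81.6% or more in every GFP+ library and 53.8% or less in every GFP− library, and Adora3 took nearly all of the rest.

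Within a fraction the relation of the 2 genes was not settled. Over the 6 GFP+ libraries, log2(CPM + 0.5) of Adora2a and Adora3 gave Pearson r = 0.532 (exact permutation p = 0.256) and Spearman rho = 0.714 (exact permutation p = 0.136). Over the 6 GFP− libraries they gave r = 0.526 (exact permutation p = 0.278) and rho = 0.657 (exact permutation p = 0.175). All 4 two-sided p-values became 0.278 after Benjamini-Hochberg adjustment, so neither relation passed the threshold. Without the 2 libraries farthest from the median of Adora2a, r was 0.875 in GFP+ and 0.543 in GFP− over 4 libraries. These values pool both treatments. With each treatment centred on its own mean, an alternative chosen after seeing the data, r was 0.468 in GFP+ (exact permutation within treatments, p = 0.139) and turned to −0.499 in GFP− libraries (exact permutation p = 0.389).

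Adora2b, the other Gs-coupled receptor, was at or under 1.69 CPM in every library. It was 1.69, 0.950 and 0.266 CPM in the non-treated GFP+ libraries KT13, KT15 and KT17, and 0, 0.507 and 1.35 CPM in the GFP− libraries KT14, KT16 and KT18. After anti-PD-L1 it was 1.61, 0.303 and 1.04 CPM in KT19, KT21 and KT23, and 1.09, 1.07 and 1.66 CPM in KT20, KT22 and KT24. All conditions overlapped with their neighbours in order of level, and the values of KT17 and KT21 rested on 4 counts each. The log2 difference of GFP+ against GFP− was 0.64 (95% interval −1.58 to 2.85) in non-treated and −0.36 (−2.54 to 1.82) after anti-PD-L1, so differences as large as those of Adora2a and of Adora3 lay within both intervals and Adora2b was too low to compare. The log2 differences were −0.02 and 0.06 without KT13 and KT21, and without KT18 the first was 1.87.

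Whether blockade of PD-L1 altered the receptors was then asked within each fraction. Adora2a was 1.40-fold higher after anti-PD-L1 in GFP+ cells (log2 0.49, SE 0.190, edgeR adjusted p = 0.623) and 1.38-fold higher in GFP− cells (log2 0.46, SE 0.193, adjusted p = 1), and neither difference passed the threshold. The treated and non-treated GFP+ libraries overlapped, since KT19 at 66.3 CPM was below KT13 at 67.3 CPM, and the GFP− libraries did not overlap, at 25.97 CPM or more against 24.3 CPM or less. Adora3 was 1.13-fold higher in GFP+ (log2 0.18, SE 0.257, adjusted p = 0.993) and 1.18-fold higher in GFP− cells (log2 0.24, SE 0.249, adjusted p = 1). Its GFP− libraries did not overlap, at 26.9 CPM or more after treatment against 25.9 CPM or less without it, and its GFP+ libraries did. How many of all genes tested were separated in this way was not counted. Nothing is read from the separation for either receptor. For Adora2b the log2 differences were 0.04 (SE 1.11, adjusted p = 0.9997) in GFP+ and 1.04 (SE 1.13, adjusted p = 1) in GFP− cells. The former was 1.11 without KT13 and KT21, −0.41 without KT17 and −0.51 without KT19, and the latter 0.46 without KT14 and 2.27 without KT18. Hence 0 of the 3 receptors tested were called in either fraction, by edgeR or by DESeq2, where edgeR called 0.0141% of all genes in GFP+ and 0% in GFP− cells. In the latter, 487 genes had an unadjusted p under 0.05, and DESeq2 called 33. Unadjusted, the p of Adora2a was 0.0227 in GFP+ and 0.0300 in GFP− cells. Without KT13 and KT21 the log2 difference of Adora2a was 0.34 (adjusted p = 0.648) in GFP+ and 0.47 (0.408) in GFP− cells, and that of Adora3 in GFP+ cells was 0.49 (0.607). Without KT17 the latter was −0.061. Markers of cell types differed in sign with treatment beside these values, although edgeR called 0 of those given here. All 7 CD8+ T cell genes had positive log2 differences in both fractions (median 0.33 in GFP+ and 0.19 in GFP−). Macrophage genes without Cx3cr1 had negative values for 8 and 10 of 10 tested (median −0.72 and −0.97), and tumor epithelium genes for 4 of 4 in both (median −1.06 and −1.16), where their 5 genes summed to 8.20 to 32.8 CPM over all libraries. Other lists were less uniform or rested on few genes. Of 4 NK cell genes 2 were negative in GFP+ and 3 in GFP− cells, and of 4 dendritic cell genes tested 3 in both. The 2 eosinophil genes tested were positive in GFP+ and split in GFP− cells. The CD4+ T cell, mast cell and neutrophil lists had 1 gene tested each, negative in both. The part of cell makeup in the treatment differences of the receptors was not tested.

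The difference between GFP+ and GFP− cells was of like size with and without anti-PD-L1. The interaction of GFP and treatment was 0.02 on the log2 scale for Adora2a (95% interval −0.51 to 0.55, edgeR adjusted p = 0.9999) and −0.05 for Adora3 (−0.76 to 0.65, adjusted p = 0.9999), so that changes of the GFP difference of up to these bounds could not be seen. Both estimates changed sign with the libraries left out, to −0.13 for Adora2a and 0.26 for Adora3 without KT13 and KT21. No receptor, and 0% of all genes, was called for the interaction by edgeR; DESeq2 likewise called 0, and the unadjusted edgeR p was under 0.05 for 295 genes. The share of Adora2a among the receptor counts was 1.86 percentage points higher after treatment in GFP+ (exact permutation p = 0.4, two-sided) and 3.44 points higher in GFP− cells (exact permutation p = 0.4). The summed receptor CPM was 26.7 higher in GFP+ (exact permutation p = 0.2) and 13.4 higher in GFP− cells (exact permutation p = 0.1). With 3 libraries against 3 such a test cannot give less than 0.1.

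**Figure D4:**
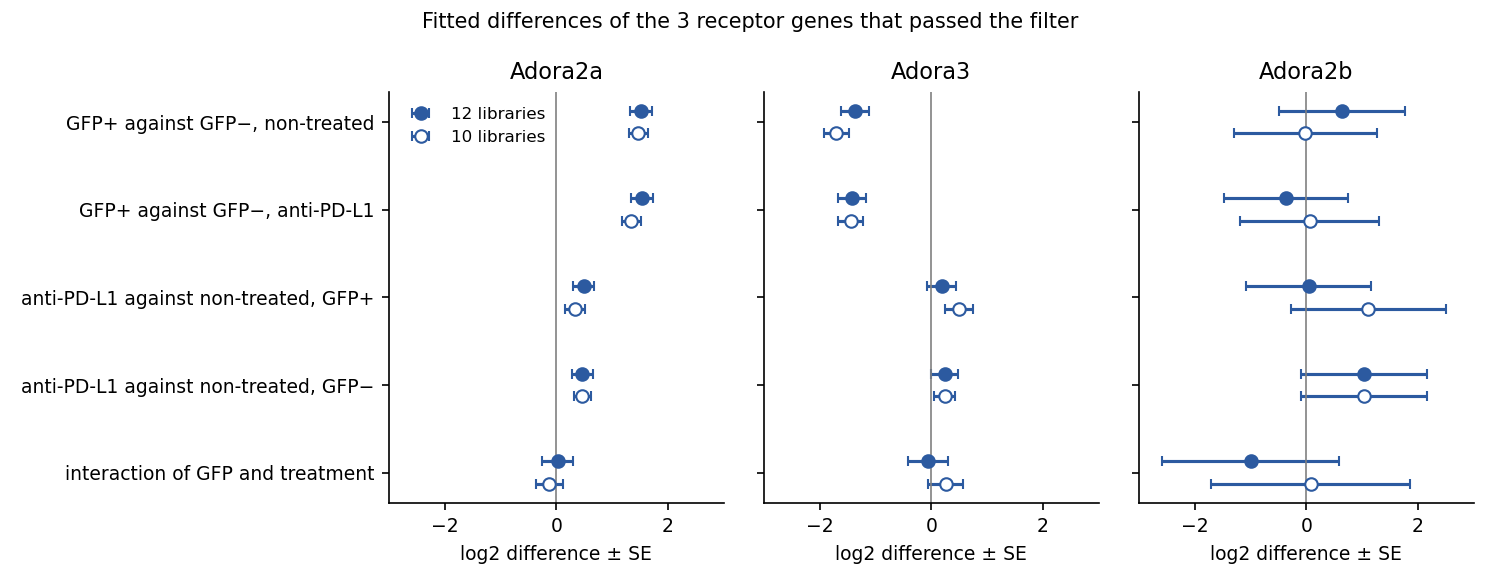
Log2 differences with their SE (x axis) of Adora2a, Adora3 and Adora2b in 5 comparisons, fitted by edgeR with 12 libraries (filled) and without KT13 and KT21 (10 libraries, open). Adora2a is near 1.5 and Adora3 near −1.4 for GFP+ against GFP− with and without treatment, the treatment differences are under 0.5 for both over 12 libraries, and the SE of Adora2b exceeds 1 throughout.

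Genes whose levels followed each receptor most closely over the 12 libraries were named by Pearson r of log2(CPM + 0.5), without a test, since these genes and the receptors share the GFP gate and the libraries. For Adora2a they were 1700019D03Rik (r = 0.935), Itga4 (0.919), Armcx4 (0.908), Slc2a6 (0.898) and Rasgef1a (0.897). Itga4 encodes the integrin alpha4 chain, with which T cells bind VCAM-1, Slc2a6 a hexose transporter, and Rasgef1a an exchange factor for Ras family GTPases. Slc2a6 rests on few counts, with a mean of 1.01 CPM. It was under the limit of measurement in KT14 (0.057 CPM), KT18 (0 CPM) and KT24 (0.151 CPM), all GFP− libraries. For Adora3 they were Lgals3 (0.922), Susd3 (0.916), Fam129b (0.899), Cd86 (0.896) and Ifitm2 (0.895). Lgals3 encodes galectin-3, Cd86 a ligand of CD28 and CTLA-4, and Ifitm2 an interferon-induced membrane protein. Without KT13 and KT21 the coefficients were 0.862 to 0.941 for the first set and 0.896 to 0.957 for the second. For Adora2b, whose values rest on few counts, they were Klhl9 (0.907), Sephs2 (0.896), Zyg11b (0.895), Mtif2 (0.876) and mt-Ti (0.872). Each of these genes was lowest in KT14, the library with 0 counts of Adora2b, so the coefficients lean on that library. Without KT13 and KT21 they were 0.869 to 0.928. Among the 14173 genes tested, Adora3 had the 58th most negative coefficient with Adora2a (r = −0.797), a value set by the separation of the GFP fractions. The pair was chosen for that separation, so nothing is read from the coefficient or its rank.

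The genes next to Adora2a and Adora3 were compared in the same way. Specc1l and Gucd1, the tested genes on either side of Adora2a at 4.13 and 16.3 kb, had log2 differences of GFP+ against GFP− of −0.28 and −0.34 in non-treated and 0.25 and −0.07 after anti-PD-L1. Rap1a and Atp5f1, at 69.5 and 33.8 kb on either side of Adora3, had −0.21 and −0.14 in non-treated and −0.36 and −0.27 after anti-PD-L1. None of them was called in any comparison by edgeR over 12 libraries.

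Because Adora3 and some of the genes that followed it are expressed by myeloid cells, transcripts of other cells were counted beside it. The summed CPM of C1qa, C1qb and C1qc, complement genes of macrophages, was 125 to 157 in non-treated GFP+ and 76.5 to 132 in non-treated GFP− libraries, and 49.2 to 95.8 in GFP+ and 43.3 to 76.0 in GFP− libraries after anti-PD-L1. All 3 had positive log2 differences of GFP+ against GFP− in both treatments. They were picked out of a planned list of 12 macrophage genes, and were not a planned set of their own. A wider list of 11 macrophage genes (without Cx3cr1, which effector CD8+ T cells also express) summed to 206 to 280 and 156 to 223 CPM without treatment, and to 86.6 to 169 and 77.1 to 133 CPM after it, in GFP+ and GFP− libraries respectively. Of its 10 genes that could be tested, 6 had a positive and 4 a negative log2 difference of GFP+ against GFP− in non-treated cells. After anti-PD-L1 all 10 had a positive one, and edgeR called 0 of them in either. Of 8 mast cell and basophil genes, Fcer1a and Tpsb2 were at 0 in all 12 libraries, Cpa3, Ms4a2, Mcpt4, Cma1 and Mcpt8 were at most 0.784 CPM, and only Kit was higher, at 7.81 to 25.8 CPM. The 8 dendritic cell genes summed to 162 to 224 CPM in GFP+ and 132 to 166 CPM in GFP− libraries without treatment, and to 95.1 to 164 and 88.3 to 144 CPM after it. Cd74 (39.3 to 105.6 CPM), H2-Ab1 (28.99 to 97.3 CPM) and Itgax (9.96 to 37.6 CPM) made up most of this, Zbtb46 was at most 2.94 CPM, and Xcr1, Clec9a, Flt3 and Cd209a at most 1.01 CPM. Of the 4 that could be tested, 4 had positive log2 differences of GFP+ against GFP− in both treatments (median 0.36 in non-treated and 0.48 after anti-PD-L1), and 0 were called. The 4 NK cell genes summed to 316 to 395 CPM in GFP+ and 377 to 474 CPM in GFP− libraries without treatment, and to 375 to 426 and 367 to 452 CPM after it. Klrk1 (222 to 412 CPM), Eomes (26.5 to 39.3 CPM) and Klrb1c (13.8 to 51.3 CPM) exceeded Ncr1 (1.21 to 6.65 CPM). T cells can express some of these genes, Klrk1 among them, so the list is not particular to NK cells. The median log2 difference of the 4 genes for GFP+ against GFP− was 0.12 in non-treated and 0.72 after anti-PD-L1, and 0 were called. Eosinophil genes summed to 2.05 to 11.8 CPM in GFP+ and 2.72 to 7.17 CPM in GFP− libraries without treatment. After anti-PD-L1 they summed to 13.4 to 15.6 and 6.49 to 7.96 CPM. The 2 eosinophil genes tested had positive log2 differences of GFP+ against GFP− in both treatments (median 0.54 and 1.17), and 0 were called. Tumor epithelium genes had positive differences for 4 of 4 tested in non-treated and 3 of 4 after anti-PD-L1 (median 0.53 and 0.30), and 0 were called. Neutrophil genes summed to at most 3.37 CPM and B cell genes to at most 1.01 CPM. The part of any such cells in the receptor levels was not tested beyond these values.

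**Figure D5:**
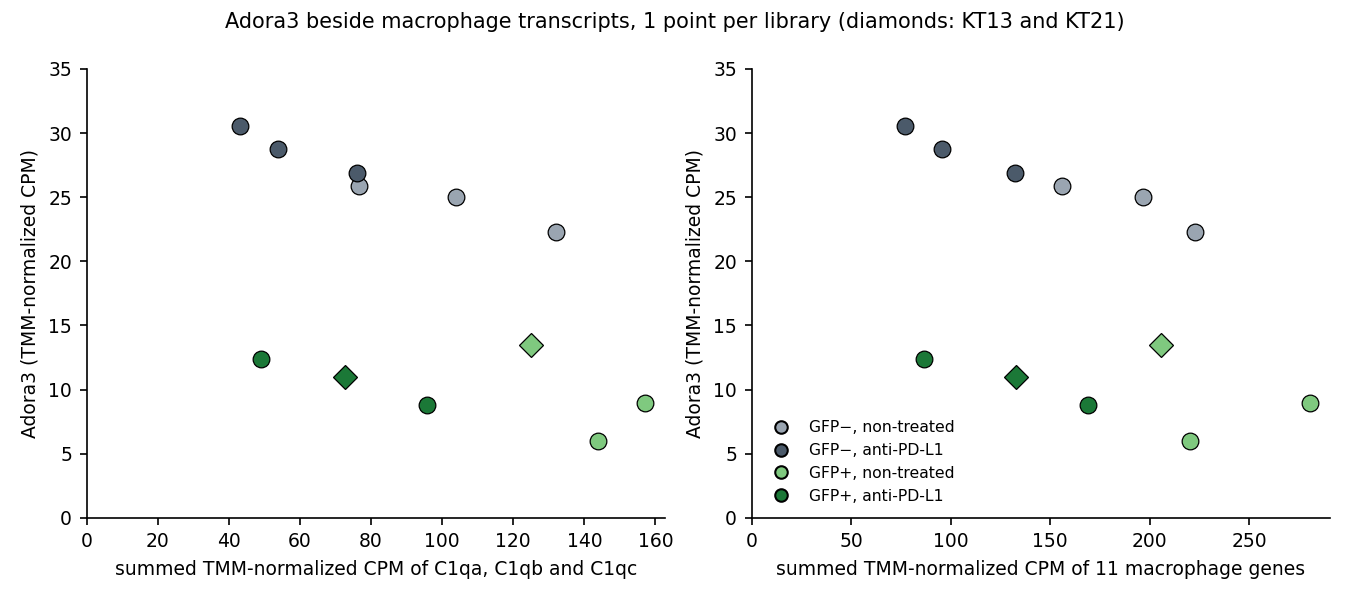
Adora3 (y axis, TMM-normalized CPM) against the summed CPM of C1qa, C1qb and C1qc (left) and of 11 macrophage genes (right), 1 point per library, coloured by condition, with KT13 and KT21 as diamonds. All GFP− libraries, at 22.3 CPM of Adora3 or more, lie above all GFP+ libraries, at 13.4 CPM or less. The part of macrophages in these levels was not tested.

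The rest of the adenosine pathway was described by 5 lists, of 124 genes in all, 85 of them tested, and edgeR called 0 of these in any comparison over 12 libraries. Of all 14173 genes tested it called at most 0.0282% in a comparison. At an unadjusted p under 0.05 there were 7 and 3 between GFP+ and GFP− cells (non-treated and anti-PD-L1), 8 and 3 with treatment (GFP+ and GFP−) and 2 for the interaction. Over all 14173 genes tested there were 857, 578, 955, 487 and 295 in the same order. DESeq2 called 1 of the 85, Entpd1, with treatment in GFP+ cells, where it called 93 genes over the whole table. Nothing is read from these counts for the pathway. Of the genes that make, remove or transport adenosine, 20 of 30 could be tested, and their median log2 difference of GFP+ against GFP− was 0.15 in non-treated and −0.02 after anti-PD-L1, beside 0.00 over all genes in both. Entpd1, which encodes CD39, was 18.3 to 21.6 CPM in non-treated GFP+ libraries and 32.3 to 41.3 CPM after anti-PD-L1, ranges that did not overlap. How many of all genes tested had such ranges was not counted. The log2 difference of Entpd1 was 0.93 (SE 0.163, edgeR adjusted p = 0.0946). Without KT13 and KT21, which leaves 2 libraries in each GFP+ condition, it was 0.93 with an adjusted p of 0.0153, past the threshold by edgeR. In GFP− cells Entpd1 had a log2 difference of 0.42 with treatment (adjusted p = 1). Nt5e, which encodes CD73, was 46.3 to 50.02 CPM in non-treated GFP+ and 49.8 to 55.9 CPM in GFP− libraries, and its log2 differences over 12 libraries lay between −0.26 and 0.12. Ada, the adenosine deaminase, was 1.36 to 5.33 CPM over all conditions. Adk, the adenosine kinase, had a log2 difference of 0.57 (SE 0.272, adjusted p = 0.841) and the nucleoside transporter gene Slc29a1 one of 0.16 (SE 0.218, adjusted p = 0.961) for GFP+ against GFP− in non-treated cells.

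Downstream of the receptors, 26 of 35 genes of the Gs and cAMP branch and 25 of 29 of the Gi branch and its regulators could be tested. For GFP+ against GFP− their medians were 0.05 and 0.01 in non-treated and −0.10 and −0.06 after anti-PD-L1. With treatment they were −0.12 and 0.14 in GFP+ and 0.03 and 0.11 in GFP− cells. Gnas, which encodes the Gs alpha subunit, averaged 318 to 366 CPM over the conditions and Gnai2, the main Gi alpha subunit gene of lymphocytes, 756 to 829 CPM. Their log2 differences of GFP+ against GFP− were 0.20 (SE 0.257) and −0.01 (SE 0.157) in non-treated cells, and did not pass the threshold (adjusted p = 0.954 and 0.995).

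Other receptors that signal through Gs were measured beside A2A, with 9 of 15 tested and a median log2 difference of GFP+ against GFP− of −0.14 in non-treated and −0.08 after anti-PD-L1. Ptger4, the prostaglandin E2 receptor EP4, averaged 40.4 CPM in non-treated GFP+ and 55.4 CPM in GFP− libraries (log2 −0.46, SE 0.170, adjusted p = 0.711). Ptger2 (EP2) was at most 7.38 CPM in any library. Of 15 receptors for nucleotides, the precursors of adenosine, 5 could be tested, with medians of −0.11 and −0.12. P2rx7, an ATP-gated channel, was at most 2.67 CPM. P2ry14, a receptor for UDP-sugars, averaged 5.84 CPM in non-treated GFP+ and 14.0 CPM in GFP− libraries (log2 −1.26, SE 0.373, adjusted p = 0.562). Without KT13 and KT21, which leaves 2 non-treated GFP+ libraries, it passed the threshold by edgeR (log2 −1.55, adjusted p = 0.0473). After anti-PD-L1, P2ry14 was 5.85 to 10.5 CPM in GFP+ and 8.97 to 15.7 CPM in GFP− libraries, ranges that overlapped.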

How the data were processed

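The values deposited by the authors are unnormalized counts of reads on genes in 12 libraries. Single-end QuantSeq 3′ reads of 75 bp were trimmed with Cutadapt, HISAT2 placed them on mm10, and featureCounts (Subread 1.6.4 in the submitters' processing notes) made the counts. Its settings for strand and multi-mapping reads are not given in the sources used here. Symbols came from GENCODE vM21. Counts were normalized by TMM and compared by the quasi-likelihood F test of edgeR 4.0.16 (R 4.3.3) in 1 fit over the 4 conditions, for 14173 genes kept by filterByExpr, with Benjamini-Hochberg adjustment over all of them and a threshold of 0.05. Total counts per library were 11292699 to 19023900. Groups came from the sample labels, which give no pairing and no batch, and nothing in them says that libraries of a condition came from separate cohorts, so p-values measure the spread between these pools. Copies were looked for only among libraries of the same condition, by a chi-square of their counts divided by its degrees of freedom. This was lowest, at 11.9, for KT20 and KT22 (anti-PD-L1 GFP−), and no pair was taken as a copy. Pairs from different conditions were not checked in this way.

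The members, the lists and the tests were chosen with earlier results of these data known. Named genes are the receptors, the 5 genes closest to each by Pearson r, fixed pathway genes (Entpd1, Nt5e, Ada, Adk, Slc29a1, Gnas, Gnai2, Ptger4, Ptger2 and P2rx7, with 1 more gene not reported here), and list members called in a comparison. The nearest tested neighbours were added outside this rule after values were seen. Of the listed names Pnp was not matched and Adrbk1 was matched as Grk2. Standard errors are the log2 difference over the square root of F, and 95% intervals are normal. Scripts were tested on simulated data. DESeq2 1.42.0, another normalization, other filters, another pseudocount and leaving out libraries were tried as alternatives. Windows and motifs were read from RefSeq sequences.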

Additional observations from a re-analysis of the deposited data

How the results depend on the processing

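Each alternative changed 1 choice of the fit: DESeq2, upper-quartile normalization, another filter, only the groups compared, or libraries left out. Over 18 of them the GFP difference of Adora2a stayed between 1.43 and 1.57 (log2) in non-treated cells and 1.34 and 1.71 after anti-PD-L1, and that of Adora3 between −1.70 and −1.13 and between −1.51 and −1.30. For Adora3 in non-treated cells the value was −1.70 without KT13 and KT21, and leaving out 1 library gave −1.70 (without KT13) to −1.13. No treatment difference of a receptor passed the threshold under any alternative run, with adjusted p from 0.323 to 1 for Adora2a in GFP+ cells and from 0.408 to 1 in GFP− cells. The treatment difference of Adora3 in GFP+ cells ran from −0.061 (without KT17) to 0.52 (without KT13) with 1 library left out, and that of Adora2b from −0.51 (without KT19) to 0.69. The interaction ran from −0.17 (without KT21) to 0.19 for Adora2a and from −0.30 (without KT17) to 0.28 (without KT13) for Adora3, so its sign is not set by these data. Without KT13 and KT21 it was −0.13 for Adora2a, 0.26 for Adora3 and 0.075 for Adora2b. Adora2b failed a filter of 10 counts in every library and has no value there. Within-fraction correlations of Adora2a and Adora3 stayed positive with a pseudocount of 5 CPM, upper-quartile normalization and 4 libraries. Centred within treatment, r turned to −0.499 in GFP− libraries (exact permutation p = 0.389).

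Counts of genes called over the whole table moved far more. For GFP+ against GFP− in non-treated cells, 1 gene became 53 with DESeq2, 78 with no filter beyond 1 count, 50 without KT13 and KT21, and 0 to 6 with 1 library left out. After anti-PD-L1, 4 became 47, 49, 25 and 0 to 7, and 0 with only the groups compared. With treatment, 2 in GFP+ cells became 93, 123, 83, 0 to 34 and 0. In GFP− cells 0 became 33, 60, 55, 0 to 28 and 51. The cause was not tested. Both the highest counts with 1 library left out and those without the pair involve KT13 or KT21. No paired analysis was possible because the labels share no replicate numbers between groups. Whether GFP+ and GFP− libraries came from the same mice is not given in the labels. If they did, the errors of the GFP differences and of the interaction, which take libraries as independent, would not describe them. Adora1 had no counts and the SE of Adora2b exceeded 1 in the fit of 12 libraries.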

Other observations

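Within the GFP− libraries, the order of Adora3 was the exact reverse of the order of the macrophage complement genes, a pattern noticed after the values were seen. Adora3 was 22.3 CPM in KT18, 25.0 in KT16, 25.9 in KT14, 26.9 in KT20, 28.7 in KT22 and 30.6 in KT24. The summed CPM of C1qa, C1qb and C1qc was 132, 104, 76.5, 76.0, 53.7 and 43.3 in the same libraries. The GFP+ libraries after anti-PD-L1 had the same reversed order, with Adora3 at 8.76, 10.996 and 12.4 CPM and the complement genes at 95.8, 72.7 and 49.2 CPM in KT19, KT21 and KT23. The non-treated GFP+ libraries broke it, with Adora3 at 13.4, 8.99 and 5.98 CPM and the complement genes at 125, 157 and 144 CPM in KT13, KT15 and KT17. The complement sum was lower after anti-PD-L1, and its part in Adora3 was not tested.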
